A study of Mus musculus with 6 samples.

Results

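The 6 genes described here encode 2 mitochondrial hydroxylases that act on vitamin D, CYP24A1 and CYP27B1, the vitamin D receptor VDR, and the 3 retinoid X receptors RXRA, RXRB and RXRG with which it pairs. They were picked by name from the 55802 genes of the tables, with the low Cyp24a1 values of the SETD4 libraries already known. RNA came from cultured primary neural stem cells taken from the subventricular zone, a niche beside the lateral ventricle, of adult C57BL/6 mice and grown in neurobasal-type medium with B27. All cells had received an adenovirus, and there is no uninfected group. The 3 control libraries came from WT cells given ADV-GFP, a virus with green fluorescent protein only, and the 3 SETD4 OE libraries from cells given ADV-SETD4-GFP, which adds the SET domain protein SETD4, both for 24 h. The labels name neither the promoter of the virus nor separate cultures or animals for the libraries, so errors and p-values measure only the spread between these libraries, which may be technical.

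CYP27B1 adds the 1-alpha hydroxyl group that turns 25-hydroxyvitamin D into the active hormone calcitriol, and CYP24A1 starts the breakdown of both forms by hydroxylating their side chain. Calcitriol binds VDR, a nuclear receptor that sits on DNA together with an RXR, typically at direct repeats of a short half-site spaced by a few bases. Cyp24a1 is the best known gene induced by this pair and Cyp27b1 is repressed by calcitriol in kidney, so the pathway limits its own signal. In brain, VDR and CYP27B1 have been described in neurons, glia and macrophage-type cells, and RXRG is known for its role in oligodendrocyte maturation.

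The 6 libraries held 14924273 to 18078717 reads assigned to genes, recovered from the deposited FPKM (reads scaled by gene length and by library size). Setd4 itself was at 0.952, 0.972 and 1.53 FPKM in the controls and at 296, 346 and 333 FPKM in SETD4 OE, where viral and endogenous transcripts are not separated. Of the 12994 genes averaging 1 FPKM or more, 7790 differed between the groups (limma, adjusted p under 0.05), which is 60.0%, with 26.0% higher and 33.9% lower in SETD4 OE. Control replicate 1 stood apart from the other controls, with 3.78% of its reads from mitochondrially encoded genes against 2.45% in each of the other two and 3.52% to 3.73% in SETD4 OE. The part of these shares in the values below was not tested. The stem cell and astrocyte markers Nes, Sox2, Gfap, Slc1a3, Fabp7, Aldh1l1, Aqp4 and Slc1a2 were present in every library, and 5 rose and 2 fell. Gfap rose from 321 ± 14.6 to 1388 ± 42.8 FPKM, while Nes fell from 117 ± 16.0 to 42.7 ± 5.39 FPKM and Fabp7 from 1124 ± 77.2 to 817 ± 32.4 FPKM. Ependymal markers summed to 19.6 to 24.9 FPKM in the controls and 49.0 to 65.8 FPKM in SETD4 OE, and 4 of the 4 tested rose. One of them, Tmem212, was at 0.605 ± 0.364 and 1.81 ± 1.05 FPKM. It reached a mean of 1 FPKM only through SETD4 OE, so its direction was set by that filter. Of the pericyte and fibroblast markers 4 of 8 were tested, with Col1a1, Col3a1 and Rgs5 higher and Acta2 lower. Col1a1 and Rgs5, at 0.752 and 0.824 FPKM in the controls, reached a mean of 1 FPKM only through SETD4 OE. Their directions were thus set by that filter. The sums of the 8 were 32.7 to 37.1 FPKM in the controls and 22.9 to 26.7 FPKM in SETD4 OE. Neuronal markers summed to 34.1 to 37.9 FPKM and 39.2 to 46.2 FPKM, and of 2 tested Tubb3 rose. Map2, which was not called, made up most of both sums, at 29.1 ± 2.22 and 30.9 ± 3.17 FPKM. Of the endothelial markers only Flt1 was tested and fell, from 3.43 ± 0.148 to 0.618 ± 0.0638 FPKM. Flt1 reached a mean of 1 FPKM only through the controls, so its direction was set by that filter. Cldn5 was at 0 throughout and the other 4 were under 0.5 FPKM on average in each group.

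**Figure D1:**
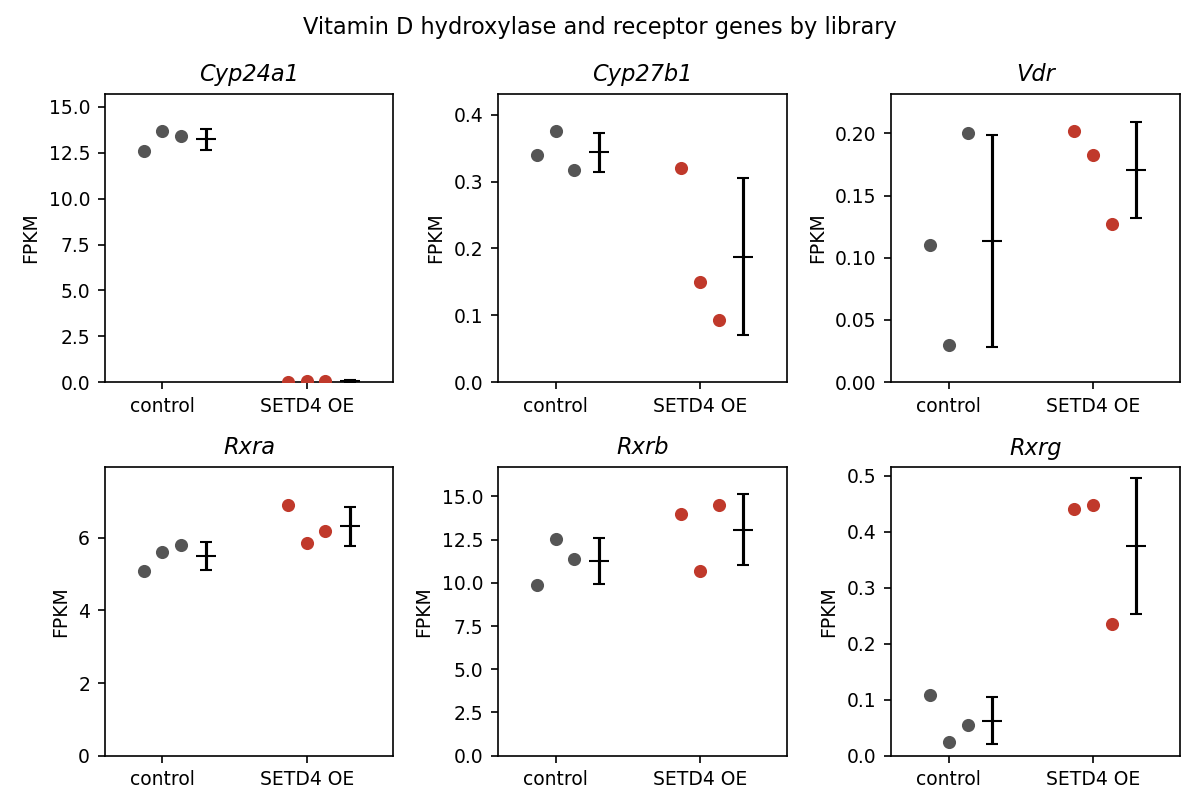
FPKM of the 6 genes in the 3 control (grey) and 3 SETD4 OE (red) libraries, each panel with its own linear axis from 0; points are libraries and the black bar is the mean ± SD. Cyp24a1 is near 13 FPKM in the controls and close to 0 in SETD4 OE, Rxra and Rxrb sit at similar levels in both groups, and Cyp27b1, Vdr and Rxrg stay under 0.5 FPKM throughout.

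Cyp24a1 (ENSMUSG00000038567; mm39 chromosome 2, 170324628 to 170339065, minus strand) was by far the most different of the 6. It stood at 12.6, 13.7 and 13.4 FPKM in control replicates 1, 2 and 3, and at 0.0178, 0.0904 and 0.0843 FPKM in the SETD4 OE replicates. These values rest on 718, 857 and 761 reads in the controls and on 1, 5 and 5 reads in SETD4 OE. The groups did not overlap, and every SETD4 OE library was close to the limit of what its depth can count. Taking the reads of each group together, 2336 against 11, the level was 206-fold lower in SETD4 OE, with an exact 95% interval of 115 to 413 that covers counting error only. On the log2(FPKM + 1) scale, which understates changes of low genes, the difference was -3.74 (SE 0.07). Among 12797 genes with at least 100 reads over the 3 controls, no other had a lower ratio of SETD4 OE to control reads. The gene was chosen for this pattern, so these values are a description.

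**Figure D2:**
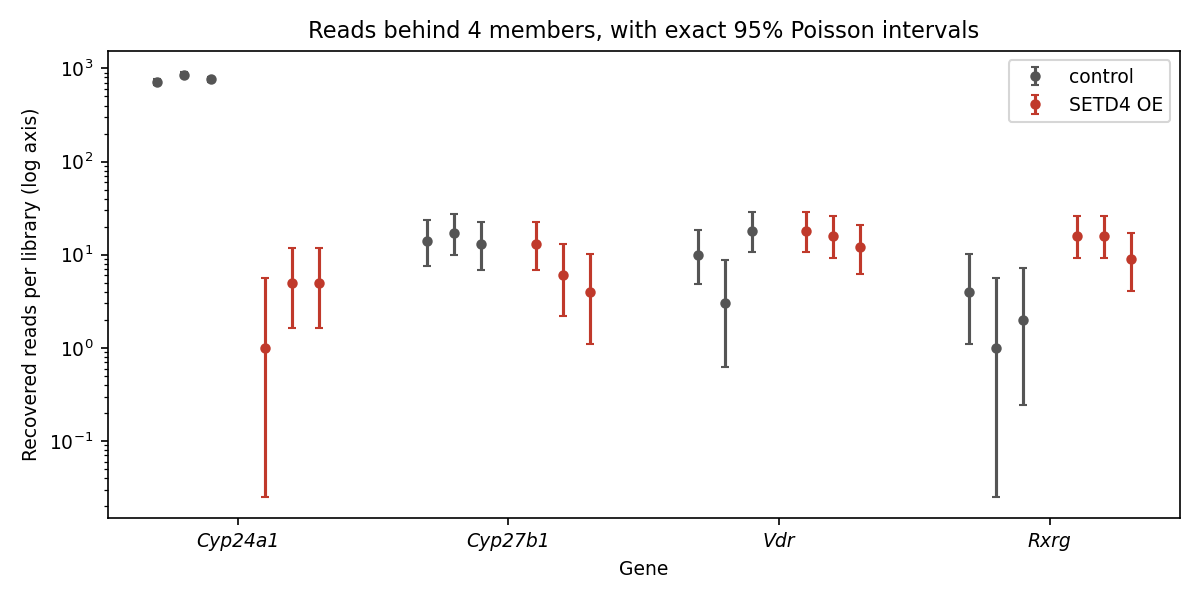
Recovered reads per library on a log axis for Cyp24a1, Cyp27b1, Vdr and Rxrg, in control (grey) and SETD4 OE (red); bars are exact 95% Poisson intervals. Cyp24a1 goes from 718 to 857 reads in the controls to 1 to 5 in SETD4 OE, and the other 3 genes rest on 1 to 18 reads in every library.

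Cyp24a1 shares its 5′ end with a neighbour on the other strand, Pfdn4, which encodes a subunit of prefoldin, a chaperone that hands unfolded actin and tubulin to the chaperonin. The deposited coordinates of Pfdn4 (ENSMUSG00000052033; mm39 chromosome 2, 170338348 to 170361043, plus strand) overlap those of Cyp24a1 over 718 bases. In the GENCODE M21 annotation of the earlier build GRCm38, 83 of these genes' exonic bases are common to both, out of 3560 for Cyp24a1 and 2520 for Pfdn4, the same lengths as in the deposited tables. Pfdn4 was at 20.8, 20.5 and 17.6 FPKM in the controls and at 5.88, 6.23 and 7.07 FPKM in SETD4 OE. It fell by 1.48 on the log2 scale (SE 0.09, adjusted p = 1.495e-05, limma), a 3.06-fold difference in reads (exact 95% interval 2.83 to 3.33). No strand setting is given, so reads in the common stretch cannot be assigned. In SETD4 OE, where Pfdn4 had 234, 244 and 297 reads, Cyp24a1 had no more than 5. How many control reads of Pfdn4 come from Cyp24a1 was not tested. No other member overlapped a listed gene.

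**Figure D3:**
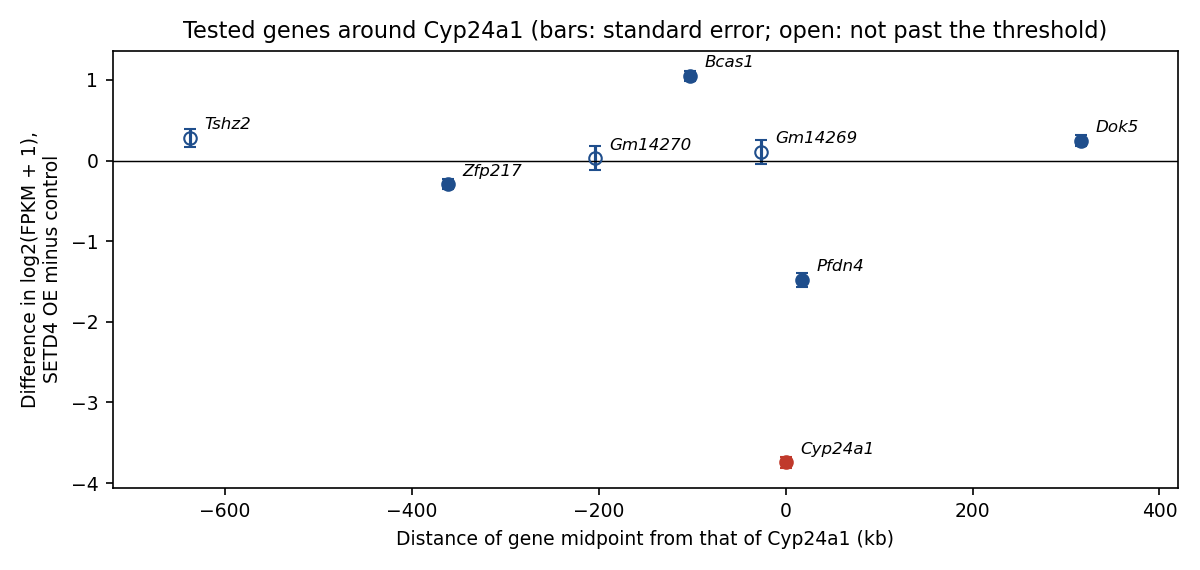
Difference in log2(FPKM + 1), SETD4 OE minus control, of the tested genes around Cyp24a1 against the distance of their midpoints from its own in kb; bars are limma standard errors and open symbols did not pass the threshold. Cyp24a1 and the overlapping Pfdn4 are the 2 lowest points, while Bcas1 lies above 0.

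Of 7 other tested genes within 600 kb of Cyp24a1, 2 rose and 2 fell, beside 60.0% called among all tested genes, so nothing is read from this count. The window was set, and its genes named, after the values were seen. Bcas1, a gene of the oligodendrocyte lineage whose midpoint lies at -103 kb from that of Cyp24a1, rose from 7.45 ± 0.423 to 16.5 ± 0.880 FPKM (SD, n = 3 each). Zfp217, a zinc finger gene, fell from 5.43 ± 0.146 to 4.25 ± 0.278 FPKM. Dok5, a docking protein of receptor tyrosine kinases, rose from 7.97 ± 0.591 to 9.63 ± 0.474 FPKM, a call by limma that was lost under the replicate block (adjusted p = 0.0587) and without control replicate 2, control replicate 3 or SETD4 OE replicate 2 (adjusted p = 0.0548 to 0.0587).

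Cyp27b1 (ENSMUSG00000006724; chromosome 10, 126884119 to 126888875, plus strand), the activating hydroxylase, was barely detected. It was at 0.340, 0.375 and 0.318 FPKM in the controls, from 14, 17 and 13 reads, and at 0.320, 0.150 and 0.0933 FPKM in SETD4 OE, from 13, 6 and 4 reads. SETD4 OE replicates 2 and 3 lay below all controls and replicate 1 lay among them, so the groups overlapped. The ratio of SETD4 OE to control reads was 0.539 (exact 95% interval 0.311 to 0.913, counting error only), and the difference was -0.18 on the log2(FPKM + 1) scale (SE 0.08). In the controls the degrading enzyme stood 36.4 to 42.3 times above the activating one in FPKM. In SETD4 OE the same ratio was 0.0556 to 0.904.

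Vdr (ENSMUSG00000022479; chromosome 15, 97752306 to 97808511, minus strand), the receptor for calcitriol, was near the detection limit in both groups. It was at 0.110, 0.0302 and 0.200 FPKM in the controls and at 0.202, 0.182 and 0.127 FPKM in SETD4 OE. One read was worth 0.0101 to 0.0114 FPKM for this gene, and the libraries held 10, 3 and 18 reads in the controls and 18, 16 and 12 in SETD4 OE. The groups overlapped, with control replicate 2 the lowest and control replicate 3 level with the highest SETD4 OE value. The ratio of reads was 1.53 (exact 95% interval 0.950 to 2.50, counting error only), an interval that includes 1. In bulk RNA, few cells with the receptor and little RNA in each cell cannot be told apart. In FPKM, Cyp24a1 stood 67.1 to 453 times above Vdr in the controls and at 0.0882 to 0.661 times Vdr in SETD4 OE.

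The receptors of this signal were led by Rxrb and Rxra, which are broadly expressed partners of many nuclear receptors. Rxrb (ENSMUSG00000039656; chromosome 17, 34250786 to 34257373, plus strand) was at 9.90, 12.5 and 11.4 FPKM in the controls and at 14.0, 10.7 and 14.5 FPKM in SETD4 OE, from 630 to 961 reads. Its groups overlapped, and the difference of 0.19 (SE 0.13) was within the spread between libraries. Leaving out 1 library moved it to between 0.11 (without control replicate 1) and 0.32 (without SETD4 OE replicate 2), with 0.12 without SETD4 OE replicate 3 and the rest between. Rxra (ENSMUSG00000015846; chromosome 2, 27566452 to 27652969, plus strand) was at 5.08, 5.62 and 5.81 FPKM in the controls and at 6.91, 5.85 and 6.18 FPKM in SETD4 OE. All 3 SETD4 OE values of Rxra lay above the controls, by as little as 5.85 against 5.81 FPKM, and the difference was 0.17 (SE 0.08), or 0.11 without SETD4 OE replicate 1. Rxrb was 1.83 to 2.35 times Rxra in every library. Rxrb made up 66.8 ± 1.82% of the summed RXR FPKM in the controls and 65.9 ± 3.22% in SETD4 OE (SD, n = 3 each), and the sum was 15.1 to 18.2 FPKM and 17.0 to 21.3 FPKM.

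Rxrg (ENSMUSG00000015843; chromosome 1, 167425953 to 167467192, plus strand) was the rarest RXR. It was at 0.109, 0.0247 and 0.0547 FPKM in the controls, from 4, 1 and 2 reads, and at 0.441, 0.448 and 0.235 FPKM in SETD4 OE, from 16, 16 and 9 reads. The groups did not overlap, and the ratio of SETD4 OE to control reads was 6.04 (exact 95% interval 2.68 to 16.0, counting error only). On the log2(FPKM + 1) scale the difference was 0.37 (SE 0.08), and its share of the summed RXR level was 0.392 ± 0.299% and 1.94 ± 0.764%. The oligodendrocyte markers Mbp, Mog, Mag, Cnp and Cldn11 were higher in the same libraries. They summed to 37.8 to 41.1 FPKM in the controls and 70.7 to 79.2 FPKM in SETD4 OE. Cnp made up most of both sums, at 33.4 ± 1.52 and 61.9 ± 3.40 FPKM. Of the 4 oligodendrocyte markers tested, 4 rose, where 26.0% of all tested genes were called higher and 33.9% lower. Mag, at 0.570 FPKM in the controls, passed the expression threshold only through SETD4 OE, so its direction was set by that filter. Of the 6 oligodendrocyte precursor markers, 4 rose and 2 fell, and the sum was 1149 to 1286 FPKM and 709 to 766 FPKM. Most of that sum was the 2 that fell, Olig1 (888 ± 43.4 to 570 ± 28.1 FPKM) and Olig2 (339 ± 32.2 to 128 ± 7.76 FPKM). The 4 that rose, Pdgfra, Cspg4, Sox10 and Gpr17, were at far lower levels. The part of oligodendrocyte and precursor cells in the Rxrg values was not tested. The 8 microglia and macrophage markers, a cell class that can carry Vdr and Cyp27b1, were all under the expression threshold and summed to 0.826 to 1.22 FPKM in the controls and 1.74 to 2.12 FPKM in SETD4 OE. Among them Aif1 was at 0 in every control library.

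Promoter sequences of 5 of the 6 genes, Cyp27b1, Vdr, Rxra, Rxrb and Rxrg, were in the RefSeq table (build GRCm38.p6, 8 start sites), each covering 250 bases before to 50 after the start. They are shown because VDR acts through paired half-sites and is known to feed back on its own pathway. The search was for 2 half-sites, each AGGTCA or one of its variants (AGTTCA, then the form GGGTCA, then the form GGTTCA), in the same orientation with 3 bases between, on both strands, known as the DR3 element. The closest match of the 8 was before the second listed start of Rxrg, on the strand of the gene at chr1:167618092-167618106, with 2 mismatches. The 250 bases before that start (chr1:167618015-167618264, plus strand) read as follows, with the match in capitals.
Rxrg: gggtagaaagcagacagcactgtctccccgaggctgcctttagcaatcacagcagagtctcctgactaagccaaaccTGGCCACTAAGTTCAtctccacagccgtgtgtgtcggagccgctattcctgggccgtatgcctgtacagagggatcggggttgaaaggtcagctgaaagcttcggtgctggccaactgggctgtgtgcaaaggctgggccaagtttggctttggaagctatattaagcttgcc
A match with 2 or fewer mismatches was present in 19.0% of the 32851 promoters of the table, so it does not set Rxrg apart, and the FPKM values do not separate its start sites. The windows of Vdr and Cyp27b1 held their best matches at 3 mismatches, a level that 77.1% of promoters reach. A window of Rxra did too, at chr2:27709143-27709157. The matches of Vdr and Cyp27b1 are printed 5′ to 3′ on the strand of the match, with the half-sites in capitals and the spacer in lower case.
Vdr, chr15:97908394-97908408: AGTTTCaggGCTTCA
Vdr, chr15:97908351-97908365: GGGGCAgggCGGTCC
Vdr, chr15:97908373-97908387: CGCCCActaAGTTCA
Cyp27b1, chr10:127048207-127048221: GGTATAtatGGGTCC
Cyp27b1, chr10:127048190-127048204: TGGTCCtggAGGTGA
Cyp27b1, chr10:127048075-127048089: GGGTCTcctGTGACA
A match describes letters only and says nothing of binding in these cells.

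In order of level, the controls ran Cyp24a1, Rxrb, Rxra, Cyp27b1, Vdr and Rxrg. Cyp24a1, at 12.6 FPKM or more, lay just above Rxrb, at 12.5 FPKM or less, while the values of Vdr and Rxrg overlapped. In SETD4 OE the order was Rxrb, Rxra, Rxrg, Cyp27b1, Vdr and Cyp24a1, where Cyp27b1 overlapped both Rxrg and Vdr while those 2 did not overlap each other. Among 21884 protein-coding genes, Cyp24a1 ranked 4059 by level in the controls and 14888 in SETD4 OE, and Rxrb ranked 4584 and 3823. The threshold of 1 FPKM was passed by 3 of the 6 genes, Cyp24a1, Rxra and Rxrb. Cyp24a1 passed only through the controls. Of the 3, only Cyp24a1 was called in the fit over all genes, where the background is 60.0%. Values of the groups did not overlap for Cyp24a1 and Rxra, against 66.0% of all tested genes, made up of 29.1% with SETD4 OE above and 36.9% with it below the controls. Since the contrast was known when the genes were picked, nothing is read from these counts.

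Beyond the 6 genes, 78 others of the pathway were taken as 5 lists by their textbook roles. Of the 44 above the threshold, 14 rose and 11 fell, or 56.8% against the background of 60.0%. With quantile normalization 16 rose and 7 fell. In the supply, activation and transport of vitamin D, 4 of 13 genes were tested, 0 rose and 2 fell, with a median of -0.17 beside -0.06 for all tested genes. The 2 were Pdia3, a disulfide isomerase also described as a membrane binder of calcitriol (188 ± 8.07 to 143 ± 1.80 FPKM, adjusted p = 1.073e-03, limma), and Dhcr7, which consumes the vitamin D precursor in the last step of cholesterol synthesis (13.5 ± 0.584 to 10.7 ± 0.461 FPKM). The call of Pdia3 was lost with quantile normalization (adjusted p = 0.0761). The electron donors of the mitochondrial hydroxylases, Fdx1 and Fdxr, differed by -0.03 and 0.02 on the log2 scale (SE 0.14 and 0.10). The 25-hydroxylase genes Cyp2r1 and Cyp27a1 were at 0.268 ± 0.105 and 0.496 ± 0.144 FPKM in the controls and at 0.155 ± 0.127 and 1.01 ± 0.245 FPKM in SETD4 OE, under the threshold. Untested genes also included Pth1r, the receptor of parathyroid hormone, at 0.221 ± 0.0110 and 1.33 ± 0.270 FPKM (32 against 186 reads), and Kl, the klotho gene, at 0.0545 ± 0.0124 and 0.188 ± 0.0561 FPKM (25 against 84 reads). Both, and Cyp27a1, were higher in every SETD4 OE library than in any control, as was Fgf23 (1 against 8 reads). Lrp2 (0.753 ± 0.0440 to 0.575 ± 0.0591 FPKM) and Fdx2 (31 against 15 reads), also untested, were lower in every SETD4 OE library than in any control. Among all tested genes the groups did not overlap for 66.0%, so nothing is read from these patterns. These genes were named after their values were seen.

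Coregulators that VDR and RXR recruit were all expressed, and changes among them were small. Of 17, 2 rose and 5 fell, with a median of -0.07, or 41.2% called beside 60.0% of all tested genes. Ncoa1, a p160 coactivator, rose from 11.7 ± 0.307 to 18.6 ± 0.931 FPKM. Carm1, an arginine methyltransferase coactivator, fell from 15.5 ± 0.478 to 9.78 ± 0.423 FPKM. Baz1b, part of a chromatin complex described with VDR, fell by 0.33 on the log2 scale, and Smarca4, the SWI/SNF ATPase and the most abundant of the list, fell by 0.31. The direction of the list depends on the scaling, with 4 higher and 3 lower at equal sums and 4 higher and 2 lower with quantile normalization, where Smarca4 was no longer called (adjusted p = 0.107). Under the replicate block 2 rose and 3 fell, and without control replicate 2 the counts were 1 and 3.

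**Figure D4:**
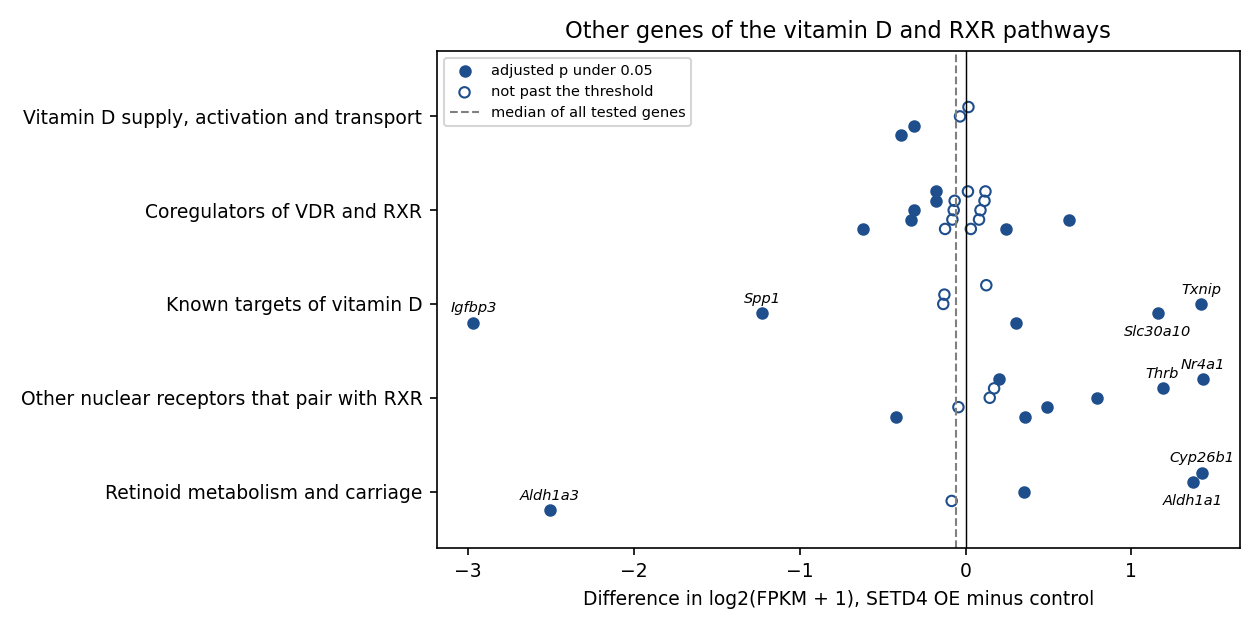
Difference in log2(FPKM + 1), SETD4 OE minus control, for the 44 tested genes of the 5 pathway lists; filled points passed the threshold, open ones did not, the dashed line is the median of all tested genes (-0.06), and genes beyond 1 in size are named. Coregulators cluster near 0, while targets and retinoid genes spread to both sides, from -2.97 for Igfbp3 to 1.42 for Cyp26b1.

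Genes known to respond to calcitriol in other tissues moved both ways. Of 20, 8 were tested, 3 rose and 2 fell, with a median of -0.0012, or 62.5% called beside 60.0% of all tested genes. Igfbp3, which binds insulin-like growth factors, was at 765, 802 and 809 FPKM in the controls and at 95.8, 103 and 102 FPKM in SETD4 OE, and fell by 2.97 on the log2 scale (SE 0.06, adjusted p = 4.928e-07, limma). Spp1, which encodes osteopontin, fell from 21.3 ± 1.45 to 8.57 ± 1.19 FPKM. Txnip, a thioredoxin inhibitor first cloned as a vitamin D induced gene, went the other way, from 20.2, 21.1 and 18.5 FPKM in the controls to 54.7, 57.4 and 53.2 FPKM, a rise of 1.42 (SE 0.06). Slc30a10, a manganese exporter, was at 0.648 ± 0.0595 and 2.70 ± 0.437 FPKM and passed the expression threshold only through SETD4 OE. Lrp5, a Wnt co-receptor, rose from 5.95 ± 0.624 to 7.59 ± 0.685 FPKM, a call by limma that was lost without SETD4 OE replicate 1 (adjusted p = 0.0776), without SETD4 OE replicate 3 (adjusted p = 0.0733) and with no filter (adjusted p = 0.0589). The last 2 genes were named after their values were seen. The calcium channels Trpv5 and Trpv6 and the calcium binders S100g and Calb1, classic targets in gut and kidney, were at 0 or under 0.3 FPKM in every library.

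Among 15 other receptors that pair with RXR, 10 were tested, 6 rose and 1 fell, with a median of 0.28. That is 70% called, beside 60.0% of all tested genes (26.0% higher, 33.9% lower). Nr4a1, an orphan receptor and immediate early gene, rose from 2.41 ± 0.116 to 8.21 ± 0.283 FPKM. The thyroid hormone receptor genes rose too, Thrb from 1.98 ± 0.226 to 5.78 ± 0.366 FPKM and Thra from 18.7 ± 1.37 to 33.2 ± 1.86 FPKM. Rara, the retinoic acid receptor alpha gene and the one that fell, went from 6.21 ± 0.277 to 4.39 ± 0.346 FPKM, named after its values were seen. The number of rises was 3 when only genes averaging 5 FPKM or more were tested, 3 without control replicate 3, and 4 under the replicate block.

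Retinoids supply the other ligand axis of RXR pairs, and their enzymes moved in opposite directions. Of 13 genes 5 were tested, 3 rose and 1 fell, with a median of 0.35. That is 80% called, beside 60.0% of all tested genes (26.0% higher, 33.9% lower). Aldh1a3, which makes retinoic acid, was at 19.0, 22.3 and 23.3 FPKM in the controls and at 2.66, 3.36 and 2.86 FPKM in SETD4 OE, and fell by 2.51 (SE 0.10, adjusted p = 3.416e-06, limma). Aldh1a1, which catalyses the same step, was at 15.7, 15.7 and 13.8 FPKM in the controls and at 38.3, 42.4 and 41.1 FPKM in SETD4 OE, a rise of 1.37 (SE 0.07). Cyp26b1, the P450 that degrades retinoic acid and thus the counterpart of CYP24A1 for that ligand, had control values of 0.253 ± 0.0600 FPKM and SETD4 OE values of 2.37 ± 0.259 FPKM. It passed the expression threshold only through SETD4 OE, so its direction among the tested genes was set by that filter.

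Profiles most like that of Cyp24a1 belonged to other genes with very large falls. By Euclidean distance between centred log2(FPKM + 1) profiles over the 6 libraries, the nearest were Ccnd1, the cyclin D1 gene (0.144), Hmga2, a high-mobility-group gene (0.242), Nptx1, a neuronal pentraxin (0.406), and Hmga1b and Hmga1, near-identical copies whose values are uncertain (0.639 and 0.647). For Rxra the nearest were Sumf1, Ankrd24 and Maml1, at 0.0519 to 0.0715, and for Rxrb they were Ddit4, Mtmr14 and Hnrnph3, at 0.0904 to 0.101. With 2 groups of 3 the measure mostly reflects the size of the difference between groups.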

How the data were processed

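RNA-seq of 3 control and 3 SETD4 OE libraries was deposited by the authors as FPKM, in 1 table for each group; per the file headers, these also list gene positions and lengths. Per the submitters' processing notes, HISAT2 2.0.5 and build mm39 were used. How reads were counted, the annotation and the strand setting are not given in the sources used here. FPKM times gene length gave whole reads for 100% of values (tolerance 0.05 reads). Chi-square per degree of freedom between libraries was 3.68 to 14.8 within groups, more than counting error alone gives. So none was a second sequencing run of another library. This measure cannot tell separate cultures from separate preparations of the same RNA. Values were compared as log2(FPKM + 1) with limma 3.58.1 in R 4.3.3 (trend, two-sided, Benjamini-Hochberg over all tested genes, threshold 0.05), for genes averaging 1 FPKM or more over the libraries. The script was tested on simulated data first. Standard errors of Cyp24a1, Rxra, Rxrb and of list genes are limma's; those of Cyp27b1, Vdr and Rxrg are from the 2 group variances. Members, lists and markers were chosen with earlier results of these data known, so members carry no test and lists no set test. Of the lists, 2 genes are not reported here and were left out of counts, medians and sums. Named genes were the members, overlapping genes, up to 3 called genes with the largest difference and the most abundant gene per list, and the nearest profiles. Alternatives were other filters, a pseudocount of 0.1, a replicate block, 4 scalings, limma-voom on recovered reads and leaving out each library; they were also run, as an addition made after seeing the data, for P450 genes and for genes named outside the rule.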

Additional observations from a re-analysis of the deposited data

How the results depend on the processing

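Cyp24a1 was lower in SETD4 OE under every alternative run, at -6.38 with a pseudocount of 0.1 and -7.72 with limma-voom on recovered reads, and the other 5 members kept the sign of their difference in each alternative that gave a value. With a pseudocount of 0.1, Cyp27b1 was at -0.70, Vdr at 0.41 and Rxrg at 1.54; these 3 have no value with limma-voom or at a mean of at least 5 FPKM, since they are under the threshold. The depth of 1 to 18 reads per library limits them most. With a mean of at least 5 FPKM, 1881 genes were higher in place of 3384, 8 genes of the pathway lists rose in place of 14, 4 other RXR partners were called (3 higher), and 2 retinoid genes were called (1 higher). With no filter, 4 genes of vitamin D supply were called (2 higher), 5 retinoid genes rose, and 1 coregulator rose. With quantile normalization 7 genes of the pathway lists fell in place of 11, 1 gene of vitamin D supply was called (1 lower), and 4 coregulators rose and 2 fell. At equal sums 4 coregulators rose and 3 fell, and with median-of-ratios factors 1 rose. Leaving out each library gave 4 to 7 coregulators called (1 to 2 higher, 3 to 5 lower) and 4 to 7 other RXR partners (3 to 6 higher); the lowest totals were without control replicate 2 and without control replicate 3. The cause of these shifts was not tested. Replicate numbers did not pair the libraries, with correlations of same-numbered deviations of -0.066, -0.229 and 0.077; under the replicate block 6941 genes were called, 3 coregulators fell, no list gene named by the rule changed its call, and Maml1, Sumf1 and Dok5 were no longer called.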

Other observations

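The other cytochrome P450 genes were looked up after the data were seen. Of 98 protein-coding genes with a P450 symbol, 40 were at 0 in every library and 16 were tested. Of these, 12 rose and 1, Cyp24a1, fell, with a median of 0.87 on the log2 scale beside -0.06 for all tested genes, of which 26.0% were called higher and 33.9% lower. Cyp24a1 was picked for its fall, and Cyp26b1 and Cyp4f14 passed the expression threshold only through SETD4 OE, so their directions add nothing to the count. Cyp24a1 ranked 3 by level among these 98 genes in the controls. The 16 tested genes do not include Cyp51, so the counts and this rank may not cover every P450 gene. The rises included Cyp2j9, an epoxygenase-family gene (4.10 ± 0.659 to 16.6 ± 0.663 FPKM), Cyp1b1 (2.42 ± 0.359 to 8.21 ± 0.172 FPKM), and 3 genes of sterol hydroxylation, Cyp7b1 (2.24 ± 0.312 to 5.17 ± 0.857 FPKM), Cyp39a1 (2.74 ± 0.129 to 5.79 ± 0.132 FPKM) and Cyp46a1, the brain cholesterol 24-hydroxylase (2.69 ± 0.358 to 4.53 ± 0.353 FPKM). Members of the Cyp2j and Cyp4f clusters are similar copies, so their values are uncertain. Over the alternatives with the same filter, 12 to 13 rose and 1 fell; 6 rose at a mean of at least 5 FPKM and 16 with no filter.

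Pfdn4, which overlaps Cyp24a1, was not the only prefoldin subunit to fall, in values looked up afterwards. Pfdn1 fell from 89.7 ± 6.81 to 48.3 ± 4.66 FPKM, Vbp1 from 45.6 ± 1.75 to 29.8 ± 3.24 FPKM and Pfdn2 from 23.4 ± 5.68 to 13.9 ± 2.73 FPKM, by 0.88, 0.60 and 0.70 on the log2 scale against 1.48 for Pfdn4. The call of Pfdn2 by limma was lost with no filter (adjusted p = 0.0595) and without control replicate 2, control replicate 3 or SETD4 OE replicate 2 (adjusted p = 0.0539 to 0.0600). Pfdn5 and Pfdn6 differed by -0.08 (SE 0.09) and -0.39 (SE 0.30).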
